A study of Mus musculus with 99 samples.

Results

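The genes described here encode 7 subunits of the GABA-A receptor: Gabra2, Gabra3, Gabra4, Gabra5, Gabrb1, Gabrb2 and Gabrd. They were chosen by name, as the rows of a gene count table whose Ensembl mouse identifier belongs to one of these symbols, a rule that uses no measured value. Gabra2, Gabra4 and Gabrb1 lie on chromosome 5, Gabra5 on 7, Gabrb2 on 11, Gabra3 on X and Gabrd on 4 (GRCm38). They are 7 of the 37991 genes in the table. All 7 passed the filter on low counts in every comparison.

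GABA-A receptors are chloride channels opened by GABA, the main inhibitory transmitter of the adult brain. Each receptor is a ring of subunits, most often alpha and beta subunits together with a gamma or a delta subunit. The alpha subunit sets much of a receptor's place on the neuron and its response to sedative drugs. Receptors with the Gabra5 or the Gabrd product lie largely outside synapses and carry a lasting, tonic inhibition, whereas those with the Gabra2 or Gabra3 product are mostly synaptic.

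The libraries are poly-A RNA-seq libraries from 4 brain regions of mice used in a study of chronic social defeat stress: the basolateral amygdala, the ventral hippocampus, the prefrontal cortex and the nucleus accumbens. The 7 groups in each region were saline-treated control, resilient and susceptible mice, and susceptible mice that had received ketamine or imipramine and were classed as responders or non-responders. Each group held 3 to 5 libraries, 99 in all, and each library pooled tissue from 2 mice. The strain and age of the mice, the drug doses and whether the regions came from the same animals are not given in the sources used here, and libraries of different regions may therefore not be independent.

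Total counts ran from 14459028 to 59187954 per library, and raw counts of the 7 genes from 145 to 17708. Levels are given as CPM, counts scaled to a common library size. No pair of libraries of a group was identical. The labelled regions carried their own markers: in control mice the median summed level of 13 striatal projection neuron markers was 9721 CPM in the nucleus accumbens and 462 to 1019.9 CPM elsewhere, and a cortical list, a hippocampal list and a basolateral amygdala list were each highest in their own region. Single control libraries held markers of neighbouring structures: a choroid plexus list reached 752 CPM in 1 amygdala library against a median of 23.4 CPM, and a thalamic list reached 282 CPM in 1 hippocampal library against a median of 108 CPM. 2 libraries stood apart from the other 97 on an index of transcript length, the mean log2 CPM of 3952 genes with more than 6 kb of exon minus that of 976 genes with less than 2 kb. The index was -0.81 in imipramine responder replicate 3 of the nucleus accumbens and -0.78 in imipramine responder replicate 2 of the amygdala, against 0.35 to 1.13 in the others. Results that rest on these libraries are given with and without them. Tissue libraries cannot tell fewer cells of a type apart from less RNA per cell, which holds for every level below.

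The first comparison asked where each gene was high or low in control mice, with neither stress nor drug. All 7 genes differed between the 4 regions by edgeR's quasi-likelihood F-test with Benjamini-Hochberg adjustment over 17720 genes, as did 72.9% of all genes tested. Ordered by the p of that test, Gabra5 stood at place 45, Gabra3 at 71 and Gabrd at 657, while Gabrb1 stood at 10316. Between pairs of regions, 6 of 7 genes differed for prefrontal cortex against nucleus accumbens (56.2% of all genes), 6 for prefrontal cortex against hippocampus (41.9%), 5 for prefrontal cortex against amygdala (36.1%), 6 for nucleus accumbens against hippocampus (50.9%), 7 for nucleus accumbens against amygdala (49.9%) and 5 for hippocampus against amygdala (40.6%). The 7 genes did not share an order of regions, since each of the 4 regions was the highest for at least 1 gene.

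**Figure D1:**
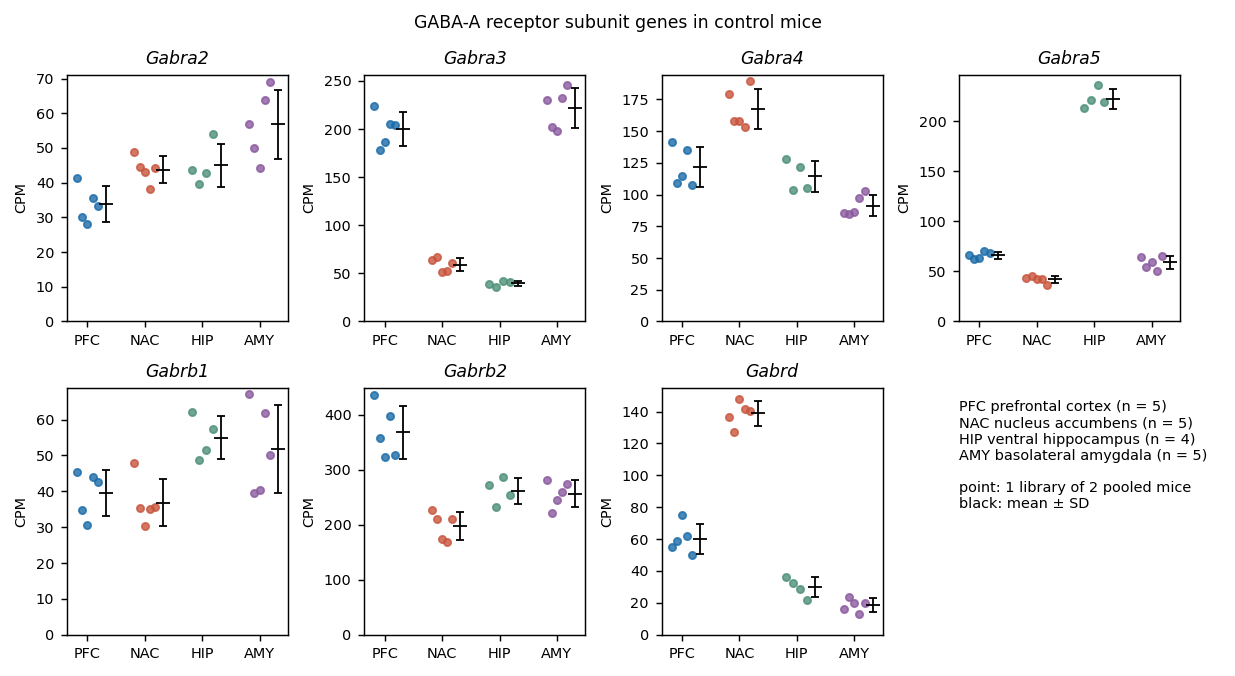
Level of each gene in CPM (y axis, from 0) in the control libraries of the 4 regions (x axis). Each point is 1 library and the black bars are the mean ± SD. Gabra5 in the hippocampus (213 to 237 CPM) and Gabrd in the nucleus accumbens (127 to 148 CPM) lie clear of all other regions.

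Gabra5 was a hippocampal gene in these libraries. The 4 control libraries of the hippocampus held 213, 221, 237 and 219 CPM. Those of the prefrontal cortex held 66.4, 62.6, 63.0, 70.7 and 68.4 CPM, and those of the amygdala 64.4, 54.0, 59.8, 50.9 and 65.9 CPM. The nucleus accumbens was lowest, at 43.8, 45.7, 42.2, 42.8 and 36.5 CPM. No hippocampal library came near those of another region, the nucleus accumbens did not overlap the others either, and only the prefrontal cortex and the amygdala overlapped. The log2 difference was -1.74 (SE 0.0764) for prefrontal cortex minus hippocampus, -2.39 (SE 0.0778) for nucleus accumbens minus hippocampus and 1.91 (SE 0.0765) for hippocampus minus amygdala, with adjusted p of 1.11e-13, 6.55e-16 and 3.40e-14 by edgeR. Prefrontal cortex minus amygdala was 0.17 (SE 0.0723, adjusted p = 0.0649 by edgeR), and it passed without amygdala control replicate 1 (adjusted p = 0.0438) or replicate 5 (adjusted p = 0.0266). Gabra5 shares annotated sequence with genes on the other strand, and the library kit does not mark strand, so reads from shared stretches cannot be assigned to one gene.

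Gabra3, an alpha subunit also known from monoamine neurons, was high in a pair of regions. Control libraries of the amygdala held 230, 202, 198, 232 and 246 CPM, and those of the prefrontal cortex 224, 179, 186, 206 and 204 CPM. The nucleus accumbens held 63.6, 67.3, 51.4, 52.3 and 60.4 CPM and the hippocampus 38.8, 35.6, 42.1 and 41.4 CPM. The amygdala and the prefrontal cortex overlapped and did not differ by edgeR (log2 difference -0.14, SE 0.0818, adjusted p = 0.19). Every library of both lay above every library of the nucleus accumbens, which in turn lay above the hippocampus by 0.59 on the log2 scale (SE 0.0903, adjusted p = 1.07e-05 by edgeR). The mean ratio of the highest to the lowest region was 5.62.

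The start regions of Gabra5 and Gabra3 are shown because these genes differed most between regions, ranked by the F-test above. Both sequences are RefSeq windows on GRCm38.p6, from 250 bases before to 50 after the annotated start, 5′ to 3′ on the gene's own strand. The Gabra5 window is chr7:57510010-57510309 and the Gabra3 window chrX:72656870-72657169, both on the minus strand, and capitals mark matches to the motifs named after them.
Gabra5: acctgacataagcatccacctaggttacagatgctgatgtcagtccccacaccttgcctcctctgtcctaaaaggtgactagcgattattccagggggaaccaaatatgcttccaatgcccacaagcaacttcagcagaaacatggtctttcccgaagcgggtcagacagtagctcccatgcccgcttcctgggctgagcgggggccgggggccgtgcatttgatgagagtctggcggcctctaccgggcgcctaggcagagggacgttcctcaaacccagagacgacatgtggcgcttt
Gabra3: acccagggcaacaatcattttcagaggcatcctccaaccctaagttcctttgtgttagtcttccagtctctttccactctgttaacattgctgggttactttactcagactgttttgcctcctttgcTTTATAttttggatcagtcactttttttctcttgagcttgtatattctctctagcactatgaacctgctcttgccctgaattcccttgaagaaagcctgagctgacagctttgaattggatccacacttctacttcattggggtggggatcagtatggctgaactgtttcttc
The Gabra5 window holds 13 CG dinucleotides and the Gabra3 window holds 0, against a median of 7 over 32851 mouse windows, 5.43% of which hold 0. Gabra3 has a further annotated window, not shown, at chrX:72656758-72657057, which overlaps the one printed and also holds 0. The motifs searched on both strands were TGACGTCA (the cyclic AMP response element), TATAAA (the TATA box), GGGCGG (the GC box), GCGTGGGCG (the EGR motif) and CACGTG (the E-box), which occur in 1.79%, 13.6%, 35.7%, 0.612% and 7.15% of windows. The only match in these 2 windows is 1 to TATAAA in that of Gabra3. It is printed as TTTATA, so the match lies on the strand opposite to the gene.

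Gabra4, an alpha subunit that pairs with Gabrd outside synapses in the thalamus and dentate gyrus, was highest in the nucleus accumbens. Its control libraries held 153 to 189 CPM there, 108 to 142 CPM in the prefrontal cortex, 103 to 128 CPM in the hippocampus and 84.6 to 103 CPM in the amygdala. The nucleus accumbens lay above all libraries of the other regions, by 0.46 on the log2 scale over the prefrontal cortex (prefrontal cortex minus nucleus accumbens -0.46, SE 0.0881, adjusted p = 0.000118 by edgeR). Prefrontal cortex and hippocampus did not differ by edgeR (0.09, SE 0.0936, adjusted p = 0.462).

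Gabra2, a synaptic alpha subunit abundant in the limbic forebrain, was highest in the amygdala, with a control mean of 56.8 ± 10.1 CPM (SD, n = 5). It was 45.01 ± 6.26 CPM in the hippocampus (n = 4), 43.8 ± 3.85 in the nucleus accumbens (n = 5) and 33.7 ± 5.18 in the prefrontal cortex (n = 5). The amygdala and the hippocampus overlapped, and that difference (hippocampus minus amygdala -0.34, SE 0.124, adjusted p = 0.0345 by edgeR) did not pass without hippocampal control replicate 1, 2 or 3 or amygdala control replicate 1, 4 or 5 (adjusted p from 0.0502 to 0.121). Over 14 alternative settings, these among them, it ran from -0.44 to -0.10 and did not pass in 8. Prefrontal cortex minus hippocampus (-0.41, SE 0.125, adjusted p = 0.0111 by edgeR) did not pass without hippocampal control replicate 4 (-0.31, adjusted p = 0.06). Hippocampus and nucleus accumbens did not differ by edgeR (nucleus accumbens minus hippocampus -0.03, SE 0.124, adjusted p = 0.861).

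Of the beta subunits, which hold part of the GABA binding site in every common receptor, Gabrb2 was the more abundant per length of transcript in all 4 regions and was highest in the prefrontal cortex. Its control libraries held 436, 358, 323, 398 and 327 CPM there, 272, 232, 287 and 254 CPM in the hippocampus, 282, 221, 244, 259 and 274 CPM in the amygdala and 228, 210, 174, 168 and 210 CPM in the nucleus accumbens. All prefrontal libraries lay above those of the other regions, and hippocampus and amygdala overlapped. Prefrontal cortex minus nucleus accumbens was 0.89 (SE 0.0953, adjusted p = 5.75e-08 by edgeR), and hippocampus minus amygdala 0.03 (SE 0.1, adjusted p = 0.857).

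Gabrb1 varied least between regions, with control means of 54.9 ± 6.03 CPM in the hippocampus (SD, n = 4), 51.8 ± 12.4 in the amygdala, 39.5 ± 6.49 in the prefrontal cortex and 36.8 ± 6.51 in the nucleus accumbens (n = 5 each). The regions overlapped, except that the lowest hippocampal library (48.7 CPM) lay above the highest of the nucleus accumbens (47.8 CPM) and of the prefrontal cortex (45.4 CPM). The difference between prefrontal cortex and amygdala (-0.39, SE 0.149, adjusted p = 0.0485 by edgeR) did not pass without prefrontal control replicate 2, 3 or 5 or amygdala control replicate 1, 4 or 5 (adjusted p from 0.0549 to 0.155). Over 15 alternative settings, these among them, it ran from -0.47 to -0.11 and did not pass in 9. The difference between prefrontal cortex and hippocampus (-0.47, SE 0.158, adjusted p = 0.0206 by edgeR) did not pass without hippocampal control replicate 1 or prefrontal control replicate 2 or 3 (adjusted p from 0.0518 to 0.0714).

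Gabra4 and Gabrb1 lie head to head on chromosome 5, Gabra4 on the minus and Gabrb1 on the plus strand, with 196 annotated bases in common. Their start regions are shown for that reason, Gabra4 at chr5:71658259-71658558 (minus strand) and Gabrb1 at chr5:71657671-71657970 (plus strand), as RefSeq windows of the same kind with motif matches in capitals.
Gabra4: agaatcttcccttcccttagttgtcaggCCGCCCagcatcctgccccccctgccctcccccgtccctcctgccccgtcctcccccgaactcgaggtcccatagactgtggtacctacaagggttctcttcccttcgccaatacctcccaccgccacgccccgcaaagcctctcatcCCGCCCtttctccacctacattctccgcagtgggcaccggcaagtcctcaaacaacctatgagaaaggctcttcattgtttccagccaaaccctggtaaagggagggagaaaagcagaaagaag
Gabrb1: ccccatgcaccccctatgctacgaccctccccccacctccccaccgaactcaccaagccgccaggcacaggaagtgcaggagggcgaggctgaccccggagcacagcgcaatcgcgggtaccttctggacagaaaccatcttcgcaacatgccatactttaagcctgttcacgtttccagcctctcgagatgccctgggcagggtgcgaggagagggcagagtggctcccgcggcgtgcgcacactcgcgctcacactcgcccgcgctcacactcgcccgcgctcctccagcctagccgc
The Gabra4 window holds 12 CG dinucleotides and 2 GC boxes, and the Gabrb1 window 25 CG dinucleotides, a number that 18.4% of all windows reach, and none of the motifs searched. Gabrb1 has a further annotated window, not shown, at chr5:71699682-71699981 with 9 CG dinucleotides and none of the motifs. The region orders of this neighbouring pair differed: the nucleus accumbens was the highest region for Gabra4 and the lowest for Gabrb1.

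Gabrd encodes the delta subunit, which takes the place of gamma in tonic receptors, and it had the widest range. Control libraries of the nucleus accumbens held 137, 127, 148, 141 and 140 CPM, and those of the prefrontal cortex 55.1, 58.7, 74.9, 62.3 and 50.1 CPM. The hippocampus held 36.1, 32.7, 29.0 and 21.8 CPM and the amygdala 15.9, 23.9, 19.7, 12.9 and 20.2 CPM. The nucleus accumbens and the prefrontal cortex stood clear of each other and of the rest, while the hippocampus and the amygdala overlapped. All 6 differences passed by edgeR, from 0.70 for hippocampus minus amygdala (SE 0.155, adjusted p = 0.00107) to 2.92 for nucleus accumbens minus amygdala (SE 0.152, adjusted p = 4.64e-12). The hippocampal control library with 21.8 CPM of Gabrd was not the one with 282 CPM of thalamic markers, which held 36.1 CPM.

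Per kilobase of annotated exon, a scale on which genes can be set side by side, the leading gene differed by region in control mice. In the hippocampus Gabra5 led with a mean of 74.8 ± 3.36 CPM per kb (SD, n = 4), ahead of Gabrb2 at 41.1 ± 3.72. In the nucleus accumbens Gabrd led with 48.3 ± 2.64 CPM per kb (n = 5), ahead of Gabrb2 at 31.1 ± 4.02 and Gabra4 at 27.5 ± 2.59. Gabrb2 and Gabra3 led in the prefrontal cortex, at 57.9 ± 7.58 and 50.9 ± 4.56 CPM per kb, and in the amygdala, at 40.3 ± 3.83 and 56.5 ± 5.30 CPM per kb. Gabra2 and Gabrb1 were the lowest in 3 regions, at 2.66 to 5.89 CPM per kb, and in the amygdala Gabrd at 6.44 lay between them (3.74 for Gabrb1 and 7.43 for Gabra2). These levels rest on exon lengths of a later annotation than the one counted, and the Gabrb1 length of 13838 bases covers all its isoforms.

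Among the other genes of GABA signalling, chosen as lists by role, 45 of 46 tested differed between regions by edgeR, against 72.9% of all genes. All 8 tested of 12 listed further GABA-A subunits did, Gabrg1 and Gabrg3, both gamma subunits, among them. Gabrg1 averaged 64.4 ± 10.9 CPM in the amygdala (SD, n = 5) and 14.5 ± 1.04 CPM in the hippocampus (n = 4). All 5 genes of GABA synthesis, packaging and breakdown were higher in the nucleus accumbens than in each other region, with Gad2, a GABA-synthesising enzyme, at 803 ± 58.3 CPM there against 153 ± 12.2 CPM in the hippocampus. All 9 genes of GABA uptake and chloride transport, 18 of 19 of receptor assembly and scaffold (all but Insyn1, adjusted p = 0.214 by edgeR) and all 5 of GABA-B receptors differed too. Gabbr2, a GABA-B receptor subunit, averaged 585 ± 16.6 CPM in the prefrontal cortex and 128 ± 8.70 CPM in the nucleus accumbens (n = 5 each).

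The second comparison asked whether stress, resilience or drug response moved these genes within a region, in 9 comparisons per region. None of the 252 tests (7 genes, 9 comparisons, 4 regions) passed at an adjusted p under 0.05 by edgeR's quasi-likelihood test, and 25 had an unadjusted p under 0.05. That is 9.92% of the tests, against 4.47% over all genes in the same 36 comparisons. In 23 tests (9.13%) the groups did not overlap, against 6.25% over all genes. DESeq2 called 1 of the 252, Gabrd in the hippocampus. Over all genes, 34 of the 36 comparisons had 0% called, and the others were ketamine responder minus susceptible (0.67%, 119 genes) and ketamine non-responder minus susceptible (0.00563%, 1 gene), both in the hippocampus. The median absolute log2 difference of the 7 genes was 0.11. Comparisons with the susceptible group share its 3 libraries in a region and are not independent. Of 1629 tests of the other GABA genes, 0 passed by edgeR and 67 (4.11%) had an unadjusted p under 0.05. DESeq2 was not counted for these lists.

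**Figure D2:**
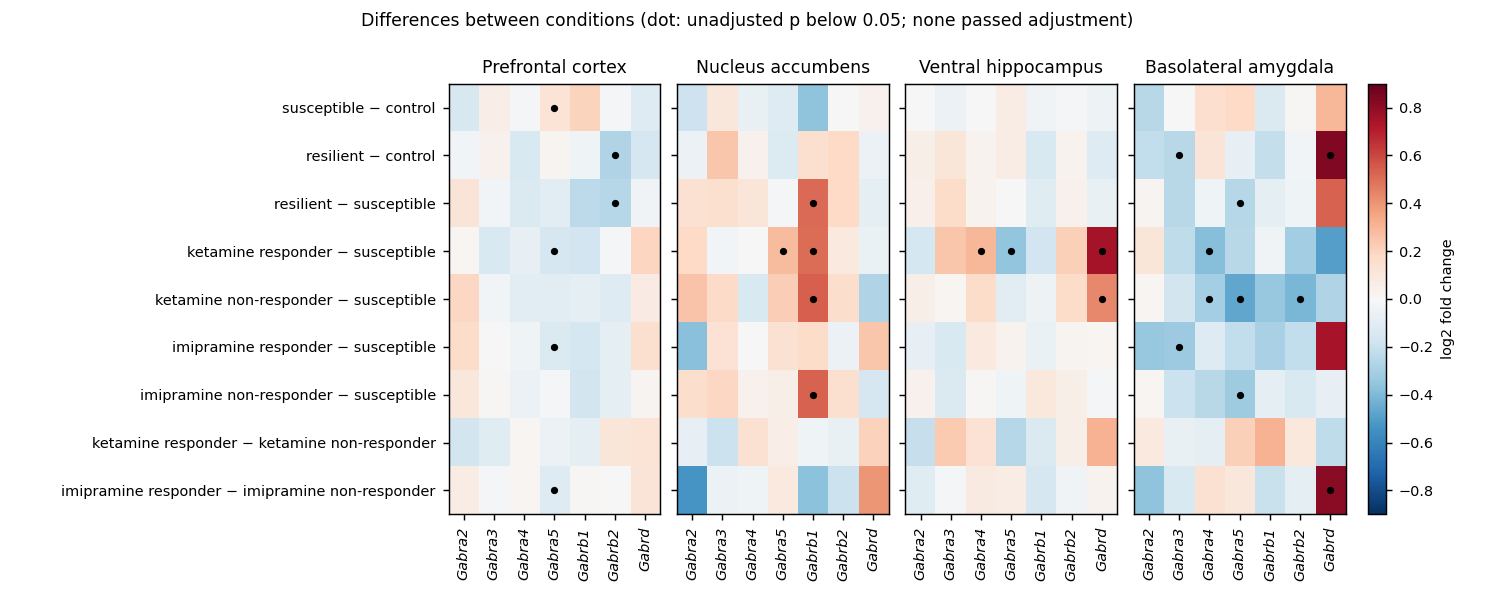
Log2 fold change of each gene (columns) in each of the 9 comparisons (rows) in the 4 regions, on a colour scale from -0.9 to 0.9. Dots mark the 25 tests with an unadjusted p under 0.05, none of which passed adjustment over all genes. The deepest colours belong to Gabrd in the hippocampus and the amygdala and to Gabrb1 and Gabra2 in the nucleus accumbens.

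Gabrd in the hippocampus came nearest to the threshold. The susceptible libraries held 27.8, 28.9 and 30.1 CPM, those of ketamine responders 34.5, 42.6 and 68.9 CPM, and those of ketamine non-responders 42.2, 37.8 and 36.9 CPM. Both ketamine groups lay above the susceptible group with no overlap, while 1 responder library lay inside the control range of 21.8 to 36.1 CPM. The difference from susceptible was 0.75 (SE 0.194, adjusted p = 0.0932 by edgeR) in responders and 0.44 (SE 0.196, adjusted p = 0.829) in non-responders. DESeq2 gave an adjusted p of 0.0131 for responders. Without responder replicate 3, the library with 68.9 CPM, the difference was 0.41 (adjusted p = 0.928 by edgeR), and without responder replicate 1 it was 0.94 (adjusted p = 0.00692).

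Thalamic markers moved with Gabrd in these libraries. All 11 were higher in ketamine responders than in susceptible mice and all 11 passed by edgeR, with a median log2 difference of 2.85. In non-responders all 11 were higher and 1 passed, with a median of 1.65. Their summed level was 249 to 1027 CPM in responders and 238 to 280 CPM in non-responders, against 94.4 to 103 CPM in susceptible libraries, where at most 1 marker was at 0. All 6 choroid plexus markers were also higher in both ketamine groups, with medians of 4.07 and 3.57 and 0 passing. Thalamic sums fell into 2 clusters, split at 200 CPM after they were seen. The 7 hippocampal libraries with a thalamic sum of 238 CPM or more, 6 of ketamine groups and 1 control, gave r = 0.96 between the log2 sum and Gabrd (exact permutation p = 0.0125, adjusted p = 0.0568 over 28 such relations), with a Spearman rho of 0.57 (adjusted p = 0.351, permutation test). Without the 2 libraries farthest from the median sum, r was 0.39, so the relation rests on them. Of the 7 genes, Gabra2 passed there (r = -0.84, adjusted p = 0.0472, exact permutation test), with r of -0.50 without the 2 farthest libraries. In the 17 other hippocampal libraries, with sums of 82.7 to 115 CPM, r was 0.52 (adjusted p = 0.0957, permutation test) and 0.04 without the 2 farthest. The part of these markers in the Gabrd difference was not tested.

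**Figure D3:**
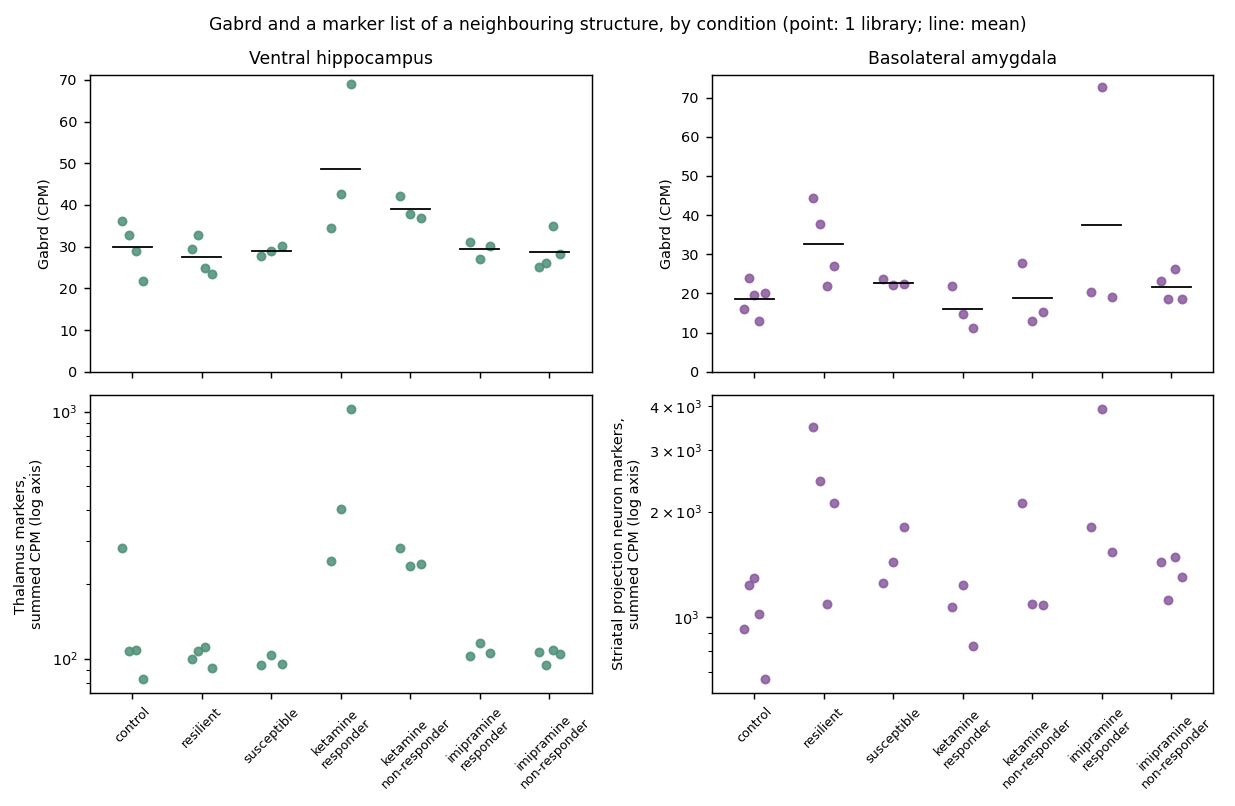
Upper panels show Gabrd in CPM by condition in the hippocampus (left) and the amygdala (right), with 1 point per library and a line at the mean. Lower panels show, on a log axis, the summed CPM of 11 thalamic markers in the same hippocampal libraries and of 13 striatal markers in the same amygdala libraries. The library with the most Gabrd (68.9 CPM in the hippocampus, 72.8 CPM in the amygdala) is also the one with the highest marker sum in its region.

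In the amygdala, the region with the least Gabrd in controls, its level ran from 11.1 to 72.8 CPM over the 25 libraries. Resilient mice held 44.3, 37.8, 21.9 and 26.9 CPM and controls 15.9, 23.9, 19.7, 12.9 and 20.2 CPM, with 1 resilient library inside the control range. The difference was 0.83 (SE 0.322, adjusted p = 0.651 by edgeR). All 13 striatal markers were higher in resilient mice than in controls, with a median of 1.34 and 0 passing, and their sum was 1093 to 3489 CPM against 668 to 1294 CPM. All 7 oligodendrocyte markers were higher too, with a median of 0.40. Imipramine responders held 20.4, 72.8 and 19.2 CPM, and 72.8 CPM belonged to the library with a transcript length index below 0, which held 3925 CPM of striatal markers. Responder minus non-responder was 0.81 (SE 0.366, adjusted p = 0.309 by edgeR) with that library and -0.11 (SE 0.31, adjusted p = 1.00) without it. Across the 25 amygdala libraries Gabrd and the log2 striatal sum had r = 0.84 (adjusted p = 0.00028, permutation test over 28 relations) and rho = 0.76 (adjusted p = 0.0007), and r was 0.70 without the 2 libraries farthest from the median sum (adjusted p = 0.00784). Within runs of consecutive sample numbers, without the library that stood apart, r was 0.76 (adjusted p = 0.00105, permutation test within runs). What share of the Gabrd differences goes with the striatal markers was not tested.

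In the prefrontal cortex and nucleus accumbens no Gabrd comparison had an unadjusted p under 0.05 by edgeR. Without imipramine responder replicate 1 of the accumbens, Gabrd (0.67, adjusted p = 0.0367 by edgeR) and Gabrb1 (-0.75, adjusted p = 0.0187) passed for responder minus non-responder there, as did 3487 genes in all, with 1 of the remaining 2 responder libraries being the one with an index of -0.81. In the nucleus accumbens the 25 libraries ran from 74.1 CPM (a ketamine non-responder) over a median of 136 CPM to 259 CPM, the last being the library with a transcript length index of -0.81. In the prefrontal cortex they ran from 49.8 to 74.9 CPM. Of the 63 tests averaged over the 4 regions, 3 had an unadjusted p under 0.05, a count with no share over all genes beside it. By edgeR or DESeq2, 0 of the 63 passed. With runs of consecutive sample numbers as a covariate 1 passed, Gabrb1 in imipramine responders against non-responders (-0.28, SE 0.08, adjusted p = 0.03 by edgeR), as did 1838 genes in all. Without the covariate it was -0.18 (SE 0.121, adjusted p = 0.343 by edgeR). Both fits kept the 2 libraries that stood apart, which are imipramine responders. Gabrd was 0.28 (SE 0.138, adjusted p = 0.221 by edgeR) higher in imipramine responders than in susceptible mice and 0.33 (SE 0.128, adjusted p = 0.0885) higher than in non-responders, a comparison in which 6.19% of all genes passed. Without the 2 libraries that stood apart these values were -0.06 and -0.01, and 0 of all genes passed the latter.

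Gabra5 gave small differences in several comparisons, none of which passed. In the amygdala the susceptible libraries held 62.5, 64.9 and 73.1 CPM. Ketamine non-responders held 46.8, 45.9 and 51.6 CPM, imipramine non-responders 59.5, 43.1, 58.2 and 53.0 CPM and resilient mice 59.2, 51.7, 52.8 and 59.2 CPM. None of these 3 groups reached the susceptible range, and control libraries spanned 50.9 to 65.9 CPM. Imipramine responders, at 51.1 to 60.9 CPM, did not reach it either, while ketamine responders, at 49.5 to 64.9 CPM, overlapped it. In the 3 groups named first, the differences from susceptible were -0.47 (SE 0.125, adjusted p = 0.992 by edgeR), -0.32 (SE 0.116, adjusted p = 1) and -0.26 (SE 0.116, adjusted p = 1). The summed level of 6 basolateral amygdala markers was 719 to 849 CPM in susceptible libraries, 573 to 775 CPM in ketamine non-responders, 513 to 796 CPM in imipramine non-responders and 537 to 804 CPM in resilient mice, with no marker at 0. The 6 cortical markers were lower than in susceptible mice in 5 of 6 for ketamine non-responders and in 6 of 6 for the other 2 groups, with medians of -0.32, -0.16 and -0.37, and 0 passed. The part of these markers in the Gabra5 differences was not tested.

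In the prefrontal cortex the susceptible libraries of Gabra5 held 68.2, 72.1 and 76.5 CPM, against 66.4, 62.6, 63.0, 70.7 and 68.4 CPM in controls. Susceptible minus control was 0.13 (SE 0.0516, adjusted p = 1.00 by edgeR), with overlap, and 0.082 without susceptible replicate 3. Ketamine responders, at 63.1, 67.3 and 64.3 CPM, all lay below the susceptible libraries, with a difference of -0.15 (SE 0.0578, adjusted p = 0.625 by edgeR). Imipramine responders, at 68.3, 62.5 and 66.4 CPM, gave a difference of -0.13 from susceptible mice (adjusted p = 0.9995 by edgeR) and of -0.12 from non-responders (adjusted p = 0.904). In the hippocampus ketamine responders held 219, 215 and 111 CPM against 242, 230 and 225 CPM in susceptible mice, a difference of -0.36 (SE 0.152, adjusted p = 0.403 by edgeR), and of -0.10 without responder replicate 3, the library with 111 CPM. That library was the one with 1027 CPM of thalamic markers, and 8 of 9 hippocampal markers were lower in that comparison, with a median of -0.25. In the nucleus accumbens ketamine responders were higher instead, at 48.2, 44.2 and 49.5 CPM against 44.1, 35.9 and 36.7 CPM (0.28, SE 0.12, adjusted p = 1 by edgeR).

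For the ketamine responder comparison the difference between regions was itself tested. Of the 7 genes, Gabra5 had the smallest p (adjusted p = 0.175 by edgeR) and Gabra4 the next (adjusted p = 0.311), and 0.662% of all genes passed. That share was 0.121% for resilient minus control, 0.00526% for ketamine non-responder minus susceptible and 0% for the rest. Over all 9 comparisons 0 of 63 such tests of the 7 genes passed, and 6 had an unadjusted p under 0.05. That count has no share over all genes beside it, and nothing is read from it. A test over all 7 conditions within a region called none of the 7 genes either, Gabrd in the hippocampus having the smallest p (adjusted p = 0.134 by edgeR, where 0.535% of all genes passed, against 0.137% in the prefrontal cortex, 0.0109% in the amygdala and 0% in the nucleus accumbens). Averaged over regions, Gabra5 was -0.12 (SE 0.06, adjusted p = 0.54 by edgeR) in ketamine responders against susceptible mice, where 0.357% of all genes passed. The shares were 0.237% for ketamine non-responder minus susceptible and 0.00526% for the 2 ketamine groups against each other.

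Gabra4 and Gabra3 lay lower than in susceptible mice in several amygdala groups. For Gabra4 the susceptible libraries held 95.8, 97.3 and 111 CPM, ketamine responders 91.1, 70.02 and 69.3 CPM and ketamine non-responders 77.6, 84.1 and 83.1 CPM, without overlap. The differences were -0.38 (SE 0.136, adjusted p = 1.00 by edgeR) and -0.30 (SE 0.136, adjusted p = 0.992). In the hippocampus the sign was the other way, with ketamine responders at 127, 125 and 171 CPM against 124, 111 and 108 CPM (0.30, SE 0.121, adjusted p = 0.366 by edgeR), and 171 CPM again belonged to responder replicate 3, the library with the highest thalamic sum, without which the difference was 0.13. Gabra3 in the amygdala held 215, 219 and 232 CPM in susceptible mice and 193, 156 and 179 CPM in imipramine responders, which did not overlap. That difference was -0.33 (SE 0.13, adjusted p = 0.395 by edgeR), and -0.24 (adjusted p = 0.975) without the library that stood apart, which held 156 CPM. In resilient mice, at 204, 154, 214 and 173 CPM, the difference from controls was -0.25 (SE 0.107, adjusted p = 0.782 by edgeR), with overlap. In the same amygdala comparisons with susceptible mice the cortical markers were lower in 5 of 6 for both ketamine groups and in 6 of 6 for imipramine responders, with medians of -0.25, -0.32 and -0.52, and 0 passed. Their part in the differences was not tested.

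Gabrb1 in the nucleus accumbens had its lowest mean in susceptible mice, at 34.5, 23.5 and 27.8 CPM. Resilient mice held 43.8, 31.7, 45.8 and 42.0 CPM, ketamine responders 36.2, 41.5 and 43.7 CPM, ketamine non-responders 51.2, 32.0 and 41.2 CPM and imipramine non-responders 48.4, 39.1, 32.6 and 45.2 CPM. Ketamine responders lay above all susceptible libraries, and each of the other 3 groups had 1 library below the highest susceptible one. The 4 differences were 0.51, 0.50, 0.54 and 0.53 (SE 0.222 to 0.235, adjusted p of 0.9999 or 1 by edgeR) and shared the same 3 susceptible libraries, and that of ketamine non-responders was 0.36 without their replicate 1. Susceptible minus control, with controls at 47.8, 35.3, 30.4, 35.0 and 35.6 CPM, had no p under 0.05. The susceptible library with 23.5 CPM had a transcript length index of 0.72, the lowest of the region apart from the library below 0.

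Gabrb2 in the prefrontal cortex held 325, 285, 294 and 315 CPM in resilient mice, 436, 358, 323, 398 and 327 CPM in controls and 378, 319 and 400 CPM in susceptible mice. The resilient libraries sat at the lower end, with 1 of 4 above the lowest control and the lowest susceptible library. The differences were -0.27 (SE 0.0843, adjusted p = 0.476 by edgeR) from controls and -0.26 (SE 0.0953, adjusted p = 0.959) from susceptible mice. With runs of consecutive sample numbers as a covariate, the difference from controls passed (-0.27, adjusted p = 0.0178 by edgeR), as did 292 genes in all. In the amygdala ketamine non-responders held 148, 236 and 196 CPM against 234, 244 and 297 CPM in susceptible mice, with overlap (-0.41, SE 0.19, adjusted p = 0.992 by edgeR). Without non-responder replicate 1, the library with 148 CPM and a transcript length index of 0.35, the difference was -0.25. In the hippocampus Gabrb2 was 0.22 (SE 0.126, adjusted p = 0.626 by edgeR) higher in ketamine responders than in susceptible mice, and with the covariate 0.30 (SE 0.066, adjusted p = 0.0188), where 471 genes passed.

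Gabra2 had no condition comparison with an unadjusted p under 0.05 by edgeR. Its lowest values were those of the 2 libraries that stood apart, 6.73 CPM in the nucleus accumbens and 11.8 CPM in the amygdala. The other libraries held 31.2 to 50.6 CPM and 35.7 to 69.1 CPM in these regions. Across the amygdala libraries Gabra2 had r = -0.63 with the striatal marker sum (adjusted p = 0.013, permutation test) and rho = -0.51 (adjusted p = 0.0699), and r was -0.57 (adjusted p = 0.0616) without the 2 farthest libraries and -0.47 (adjusted p = 0.0892) within runs.

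The third question was how the genes varied together across the 24 or 25 libraries of a region, measured as Pearson's r of log2 CPM with permutation p-values adjusted over 84 pairs of genes and regions. All libraries contribute, so that differences between conditions, in marker content and in the length index are mixed in these values. The counts of passing pairs, here and within runs, have no share over pairs of all genes beside them. They cannot tell whether these genes vary together more than other genes do. Without the 2 libraries that stood apart, 13 of 21 pairs passed in the prefrontal cortex (10 positive, 3 negative), 10 in the nucleus accumbens (6 positive, 4 negative), 9 in the hippocampus (5 positive, 4 negative) and 15 in the amygdala, all positive. With them, the amygdala had 12 positive and 2 negative pairs, Gabrd being in both negative ones. Gabra2 and Gabrb1 varied together in all 4 regions, with r of 0.71 in the amygdala, 0.68 in the hippocampus, 0.54 in the accumbens and 0.69 in the prefrontal cortex (adjusted p from 0.00084 to 0.0151, permutation test). Their rho was 0.59 to 0.78 (adjusted p from 0.00028 to 0.01), and without the 2 libraries farthest from the median r was 0.47 to 0.73 and did not pass in the nucleus accumbens (adjusted p = 0.0625). Gabra4 and Gabrb2 did so in 3 regions (0.88, 0.77 and 0.80 in the prefrontal cortex, hippocampus and amygdala), with rho of 0.76 to 0.79 and r of 0.55 to 0.83 without the 2 farthest libraries, all passing. In the nucleus accumbens their r was -0.27 (adjusted p = 0.274, permutation test). In the hippocampus the count of pairs rests on few libraries. Without the 2 farthest libraries 4 pairs passed there, of which Gabra2 with Gabrb1 and Gabra4 with Gabrb2 are among the 9, while Gabra2 with Gabra3 and Gabrb1 with Gabrb2 are not. By Spearman's rho 3 of the 9 passed, Gabra5 with Gabrd being the third.

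The sample numbers in the labels fall into 5 runs of consecutive numbers, and the libraries of the third run had the lowest median transcript length index, at 0.78 (0.35 to 0.88) against 0.91 to 1.01 in the other runs, both libraries below 0 left out. The pairs were therefore computed again from deviations from the mean of each run within a region, with libraries permuted within their run. In the prefrontal cortex 3 of the 13 pairs passed again, in the amygdala 6 of the 15 and in the accumbens 6 of the 10, while the hippocampus had 4, of which 3 were among its 9. Gabra2 with Gabrb1 passed within runs in the hippocampus alone (r = 0.68, adjusted p = 0.0158, permutation test within runs), with r of 0.39, 0.54 and 0.35 in the prefrontal cortex, accumbens and amygdala (adjusted p of 0.118, 0.0917 and 0.132). Gabra4 with Gabrb2 had r of 0.85 in the prefrontal cortex (adjusted p = 0.00042, permutation test within runs) and 0.67 in the amygdala (adjusted p = 0.00896), and was 0.79 in the hippocampus (adjusted p = 0.0583). What the runs stand for is not given in the sources used here.

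Pairs with Gabrd held the strongest negative values. In the nucleus accumbens Gabrd had r = -0.81 with Gabra3 and -0.69 with Gabrb2, and 0.77 with Gabra4 (adjusted p of 0.00014, 0.00036 and 0.00084, permutation test, n = 24). Their rho was -0.81, -0.78 and 0.49, and without the 2 farthest libraries r was -0.74, -0.72 and 0.51, all passing. Within runs they were -0.71, -0.46 and 0.90, and that with Gabrb2 did not pass (adjusted p = 0.062, permutation test within runs). In the hippocampus it had r = -0.77 with Gabra5 (adjusted p = 0.00185, permutation test, n = 24), and -0.48 (adjusted p = 0.0634) without the 2 libraries farthest from the median, while within runs it was -0.87 (adjusted p = 0.00644). Gabra4 and Gabrb1, the head-to-head pair, had r of 0.52 for amygdala and 0.58 for prefrontal libraries (adjusted p of 0.0226 and 0.00579, permutation test), against -0.01 for those of the accumbens and -0.07 for those of the hippocampus. With the library that stood apart the amygdala value was 0.30 (adjusted p = 0.202, permutation test), and 0.22 (adjusted p = 0.46) without the 2 farthest of these 25 libraries. Within runs of sample numbers it was 0.12 in the amygdala and 0.28 in the prefrontal cortex (adjusted p of 0.662 and 0.419, permutation test within runs). In the nucleus accumbens the summed level of 6 cortical markers ran from 51.4 to 1196 CPM, with r = -0.58 with Gabra5 (adjusted p = 0.0246, permutation test, and -0.55 with adjusted p = 0.0689 without the 2 farthest libraries) and -0.08 with Gabrd (adjusted p = 0.748). By Spearman's rho the strongest value was that of Gabra2, at -0.73 (adjusted p = 0.0007, permutation test), against r = -0.22 (adjusted p = 0.397), and Gabra5 had -0.56 (adjusted p = 0.0421). Within runs and without the library that stood apart, Gabra2 had r = -0.85 (adjusted p = 0.00014, permutation test within runs), Gabra5 -0.58 (adjusted p = 0.0298), Gabra3 0.66 (adjusted p = 0.0152) and Gabrb2 0.54 (adjusted p = 0.0393).

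**Figure D4:**
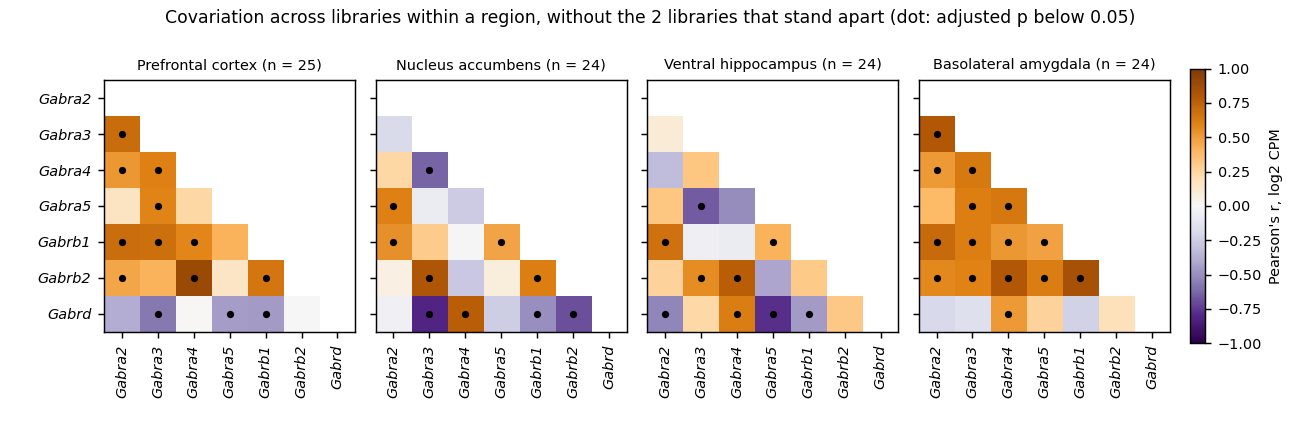
Pearson's r of log2 CPM between each pair of genes across the libraries of a region, without the 2 libraries that stood apart, so that n is 25, 24, 24 and 24. Dots mark pairs with an adjusted permutation p under 0.05, with no share over pairs of all genes to set beside them. The amygdala panel holds only positive marked pairs, and the Gabrd row holds most of the negative ones elsewhere.

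The transcript length index moved with some members. The 7 genes were left out of the index, but they differ in length themselves. Gabrb1 (13838 bases of exon), Gabra2 (7640), Gabrb2 (6360) and Gabra4 (6083) exceed the 6 kb that defines its long genes. Gabra3 (3924), Gabra5 (2974) and Gabrd (2875) do not. The part of gene length in the relations below was not tested. Over 28 relations, Gabrb1 was higher at a higher index in all 4 regions, with r of 0.84 in the amygdala, 0.64 in the hippocampus, 0.63 in the accumbens and 0.68 in the prefrontal cortex (adjusted p from 0.00014 to 0.00371, permutation test). Without the 2 libraries farthest from the median index these were 0.70, 0.55, 0.54 and 0.68, and all passed, and rho was 0.65 to 0.72. Gabrb2 passed in the prefrontal cortex, nucleus accumbens and amygdala, with r of 0.49, 0.68 and 0.71. Gabra2 had r = 0.94 in the nucleus accumbens, but 0.20 (adjusted p = 0.516, permutation test) without the 2 farthest libraries, on which it rests, and 0.91 in the amygdala, but 0.59 (adjusted p = 0.0248) without them. Gabra2 also passed in the prefrontal cortex and the hippocampus (0.49 and 0.59), and Gabra3 in the amygdala (0.52). Gabrd ran the other way, with r = -0.71 in the accumbens (adjusted p = 0.000448, permutation test) and rho = -0.49 (adjusted p = 0.0375), and r was -0.45 (adjusted p = 0.0547) without the 2 farthest libraries. In the amygdala Gabrd had r = -0.63 (adjusted p = 0.0195, permutation test), but rho = -0.17 (adjusted p = 0.508) and r = -0.03 (adjusted p = 0.921) without the 2 farthest libraries, on which it rests. Gabra4 did not pass in any region by r over all libraries, nor did Gabra5, with r from -0.13 to 0.08.

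The index and the runs of sample numbers go together, so these relations too were computed from deviations from the run means, without the 2 libraries that stood apart. Of the 28 relations 2 then passed, Gabrb1 in the hippocampus (r = 0.73, adjusted p = 0.00392, permutation test within runs) and Gabrb2 in the amygdala (0.76, adjusted p = 0.0189). In the other 3 regions Gabrb1 had r of 0.46 in the prefrontal cortex, 0.44 in the accumbens and 0.68 in the amygdala (adjusted p of 0.579, 0.426 and 0.185, permutation test within runs). These kept the positive sign and did not pass, and with so few libraries in a run the test cannot show that the relation is absent. Gabrd had -0.15 in the accumbens and 0.05 in the amygdala (adjusted p of 0.755 and 0.989).

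**Figure D5:**
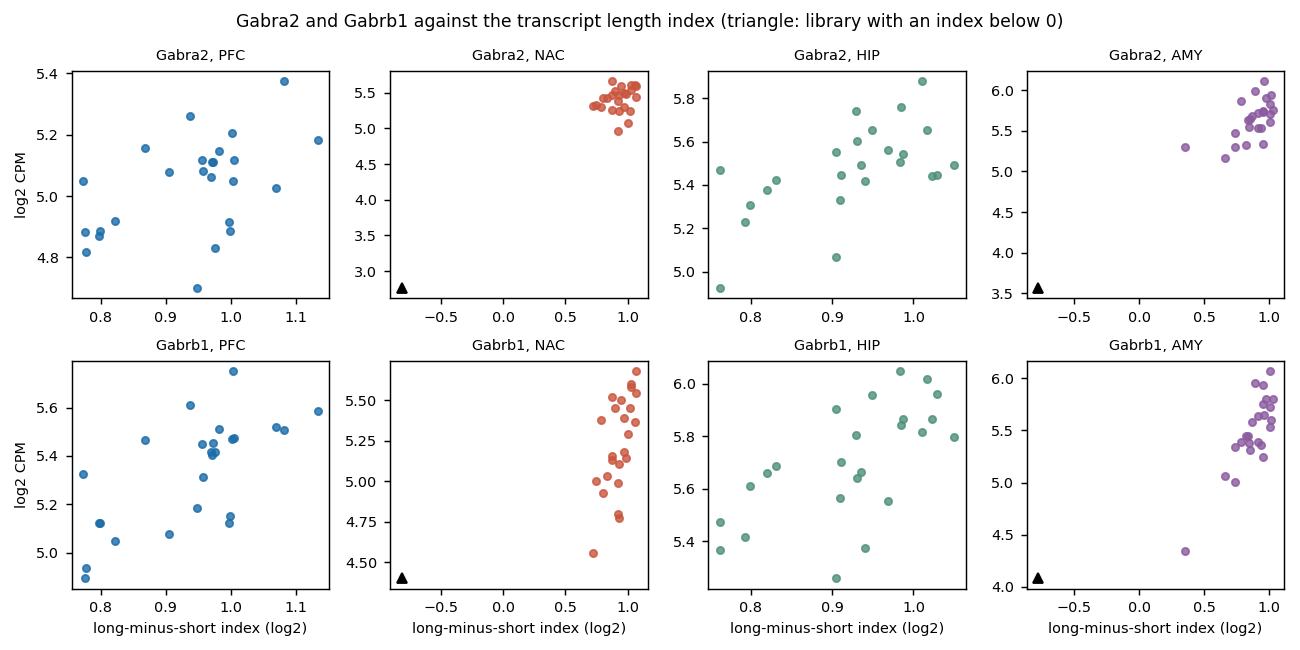
Log2 CPM of Gabra2 (upper row) and Gabrb1 (lower row) against the transcript length index (log2) in the 4 regions, with 1 point per library. Black triangles are the 2 libraries with an index below 0, at 6.73 and 11.8 CPM of Gabra2. Gabrb1 climbs with the index in every panel over all libraries, with r from 0.63 to 0.84. Runs of sample numbers are not marked, and within them the relation passed in the hippocampus alone.

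The genes whose levels ran most like each member were found among 10210 genes, by Pearson's r of log2 CPM over the 99 libraries after subtracting each region's mean, which is a description without a test. The libraries differ together in depth, length index and marker content. For Gabra2 these were Ppp1r12a, Soga3 and Klhl3 (r from 0.93 to 0.94), for Gabrb1 Usp9x, Grin2b and Nkain3 (0.90 to 0.91) and for Gabrb2 Mindy2, Wwp1 and Ttbk2 (0.88 to 0.91). For Gabrd they were Stard10, Ngef and Pde1b (0.84 to 0.86), the last a phosphodiesterase abundant in the striatum. For Gabra3 they were Adgra1, Fgf12 and Nmnat2 (0.74 to 0.78, although Adgra1 had -0.03 within the prefrontal cortex), for Gabra4 Cacnb4, AI593442 and Spock3 (0.74 to 0.76) and for Gabra5 they included Pnma2 (0.65) and Pde1a (0.61).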

How the data were processed

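Poly-A-selected libraries were made with a kit that does not mark strand and sequenced as paired 50 bp reads, per the labels' protocols. The deposited values are raw counts per gene from HTSeq 0.6.0, after TopHat2 2.0.9 with Bowtie2 2.1.0 on NCBIM37, per the submitters' processing notes. The counting settings and annotation release are not given in the sources used here. Symbols were matched by Ensembl identifier for 32919 of 37991 genes. Exon lengths and overlaps came from a GRCm38 annotation and start regions from RefSeq (Gabrd is not among those shown).

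Counts were tested in R 4.3.3 with edgeR 4.0.16 (TMM scaling, low counts removed by filterByExpr with a minimum count of 10, robust quasi-likelihood test), with 1 fit of all conditions per region, 1 of the control libraries across regions and 1 of all 99 libraries for averages. P-values were adjusted by Benjamini-Hochberg over all genes at a threshold of 0.05. Correlations used permutation tests with 100000 resamples (exact under 10 libraries), which cannot give a p below 1e-05. The fit was tested on simulated data. Alternatives were DESeq2 1.42.0, median-ratio scaling, no filter, runs of sample numbers as a covariate, and leaving out libraries or regions. The labels call the libraries biological replicates. The members and the gene lists were chosen with earlier results of these data known. Named genes were the 7 members, with the 3 genes most like each, and companions with the smallest p per list, some of which are not reported here. The length index, the removal of the libraries that stood apart, the marker correlations and the correlations within runs were added after seeing the data.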

Additional observations from a re-analysis of the deposited data

Results flagged for a closer look

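In 3 of 84 groups of 4 or 5 libraries, the highest or lowest library lay far from the others by Dixon's test, where chance flags about 1 in 20 groups. Gabra2 in the amygdala was lowest in imipramine non-responder replicate 2, at 35.73 CPM against 51.1 to 53.78 CPM in the other libraries of that group. Gabra3 in the hippocampus was highest in imipramine non-responder replicate 1, at 38.82 CPM against 32.67 to 33.51 CPM. Gabra5 in the nucleus accumbens was highest in imipramine non-responder replicate 4, at 42.62 CPM against 39.51 to 39.74 CPM.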

How the results depend on the processing

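Of the counts that answer a comparison, 623 recomputed values stayed within 1.5 times and 12 moved. With runs of sample numbers as a covariate, 1 member passed in place of 0 for resilient minus control in the prefrontal cortex, for ketamine responder minus susceptible in the hippocampus and for imipramine responder minus non-responder averaged over regions. For the hippocampal comparison 1 also passed by DESeq2 and 0 to 1 when leaving out each library. For imipramine responder minus non-responder in the nucleus accumbens, 0 to 2 passed when leaving out each library, 2 of them without responder replicate 1. Pairs passing in the hippocampus were 3 by Spearman's rho and 4 without the 2 farthest libraries, against 9. From deviations from the run means, 3, 6, 4 and 6 pairs passed in the prefrontal cortex, accumbens, hippocampus and amygdala. Of single genes and pairs, 1035 values kept their side, 92 lost and 8 gained the threshold, and 14 changed sign.

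Sign changes in region differences were small. Over all 99 libraries Gabra4 was -0.062 for prefrontal cortex minus hippocampus and Gabra3 0.043 for prefrontal cortex minus amygdala. Gabra2 for nucleus accumbens minus hippocampus was 0.063 with the covariate and -0.092 to 0.068 when leaving out each library, above 0 without accumbens control replicate 4 or hippocampal control replicate 4. Gabrb2 for hippocampus minus amygdala was -0.023 to 0.086 when leaving out each library, below 0 without amygdala control replicate 2 or hippocampal control replicate 3. Without the libraries that stood apart, Gabrd for imipramine responder minus non-responder was -0.11 in the amygdala (-0.11 to 1.13 when leaving out each library) and -0.0079 averaged over regions, and -0.061 for responder minus susceptible averaged over regions. The r of Gabra3 with Gabra5 in the hippocampus was 0.034 without the 2 farthest libraries, and in the accumbens the r of Gabra2 was -0.33 with Gabrb2 and 0.21 with Gabrd from deviations from the run means. The cause was not tested.

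Over all genes, imipramine responder minus non-responder averaged over regions had 1177 calls, but 0 without the 2 libraries apart, without the amygdala or without the nucleus accumbens, 4 with no filter, 1838 with the covariate and 2317 without the prefrontal cortex. Imipramine responder minus susceptible had 0, but 558 by DESeq2. Ketamine responder minus susceptible averaged 68, with 9 to 176 elsewhere, and non-responder minus susceptible 45, with 12 to 115. In the hippocampus ketamine responder minus susceptible had 119, with 250 by DESeq2 and 471 with the covariate, and 3 to 550 when leaving out each library. Ketamine non-responder minus susceptible had 1 there, and 30 by DESeq2. Resilient minus control in the prefrontal cortex had 0, but 16 by DESeq2 and 292 with the covariate, and in the amygdala 0, but 47 by DESeq2. Ketamine responder minus susceptible in the prefrontal cortex had 0, but 47 by DESeq2 and 27 with the covariate, and in the amygdala 0, but 15 by DESeq2. In the other condition comparisons DESeq2 called at most 7. The test over 7 conditions called 24 genes in the prefrontal cortex and 72 with the covariate. The test of differences between regions called 23 for resilient minus control and 35 with the covariate. Over all 99 libraries the region differences called 11761 genes against 6398 for prefrontal cortex minus amygdala, 12213 against 7421 for prefrontal cortex minus hippocampus and 12614 against 7187 for hippocampus minus amygdala. No paired analysis was possible because the labels give the groups no shared replicate numbers. The runs were a covariate and pair no libraries.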
